A study of Mus musculus with 4 samples.

Results

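The nuclear-encoded genes of the mitochondrial respiratory chain were followed through thymocyte development in single-cell RNA-seq of whole mouse thymus. They were all features whose symbol starts with Nduf (complex I), Sdh (complex II), Uqcr (complex III), Cox4 to Cox8 (complex IV) or Atp5 (complex V, ATP synthase), except Cox6a2, with at least 100 UMIs summed over all droplets. A UMI (unique molecular identifier) marks 1 captured mRNA molecule. Of 32285 features, 93 met this rule. Complex I was represented by 45 genes, complex II by 8, complex III by 8, complex IV by 15 and complex V by 17. Among them 12 encode assembly factors and 81 were counted as subunit genes, Ndufb1-ps included. Of 98 symbols with these prefixes, Cox7b2, Cox8b, Cox8c and Ndufa4l2 stayed under 100 UMIs, and Cox6a2 was left out by the rule.

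The respiratory chain sits in the inner mitochondrial membrane. Complexes I and II pass electrons from NADH and succinate to coenzyme Q, complexes III and IV carry them on to oxygen, and complex V uses the resulting proton gradient to make ATP. Most subunits are encoded in the nucleus and imported, while 13 core subunits of complexes I, III, IV and V are encoded by mitochondrial DNA (the mt- genes), so each of these complexes is assembled from products of both genomes. Complex II is nuclear-encoded throughout. In the thymus, immature thymocytes pass from CD4 and CD8 double-negative (DN) cells through a burst of proliferation as double-positive blasts (DPbla) to small resting double-positive cells that rearrange the TCR alpha locus (DPre), then through positive selection (DPsel) to CD4 or CD8 single-positive cells (CD4SP, CD8SP).

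The study had 4 libraries of unsorted thymocytes. Control mice carried Tox4 alleles flanked by loxP sites (Tox4;F/F) and gave 2 libraries. Conditional knockout mice (cKO, Tox4;F/F;Lck+) carried the same alleles together with Cre under the Lck proximal promoter, which is active in developing T cells from the DN stage onward and not in B, myeloid or epithelial cells, and also gave 2 libraries. Tox4 is an HMG-box protein that acts with a phosphatase complex on RNA polymerase II. Per the study's methods, mice were on a C57BL/6 background, 6 to 8 weeks old, with gender-matched littermates compared. The study describes 2 pairs of mice, but which libraries form a pair is not given, so the p-values below measure the spread between these samples.

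The libraries held 11790 to 17347 droplets and 42716798 to 62007453 UMIs. The share of droplets with over 10% mitochondrial UMIs was 48.3% and 20.6% in the control libraries and 46.1% and 23.1% in the cKO libraries, and the replicates labelled 1 stood apart from those labelled 2 on this measure. After filtering, 5647, 8440, 7297 and 12027 cells were kept (control 1, control 2, cKO 1, cKO 2, the order used for all values below). Cells were assigned to classes by clustering without any respiratory chain gene and by marker genes. Each class is thus like the stage it is named for rather than sorted for it. In each cluster of the 6 classes 7 to 10 listed markers were detected, at a low cutoff that does not tell classes apart. The marker scores of the DPbla cluster led by Cdc20 were 1.378 for DPbla and 1.155 for DPre. The DPsel clusters led by Itm2a and Tnfrsf9 had 2.42 and 2.66 for DPsel beside 1.22 and 1.78 for CD4SP. The CD8SP cluster had 2.755 for CD8SP beside 2.398 for CD4SP. Clusters that could not be named held 8.32%, 6.90%, 13.4% and 9.84% of kept cells. One of them, with DPbla markers but few UMIs per cell, held 3.31% and 3.5% of control and 7.41% and 5.70% of cKO cells. Any 2 libraries shared 36 to 70 cell barcodes. Tox4 itself gave 78.0, 83.2, 65.3 and 65.9 CPM in DPre (UMIs scaled to a common total for each library and class) and 50.3, 52.2, 43.6 and 50.1 CPM in DPbla. The loxP sites flank internal exons and this assay reads 3' ends, so Tox4 counts do not check the deletion.

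Over all kept cells, the most abundant members belonged to complexes III, IV and V. Counts of 3' ends give 1 count per molecule and are not divided by gene length. The highest levels were 921.7 ± 45 CPM for Atp5h (SD, n = 4), a subunit of the ATP synthase stalk, 920.6 ± 50.7 CPM for Cox4i1, a nuclear subunit of complex IV, and 840.5 ± 28.9 CPM for Uqcrh, the hinge protein of complex III. In complex I the highest level was that of Ndufb1-ps (401.5 ± 36.1 CPM), which GENCODE M21 lists as a noncoding RNA of a bidirectional promoter, and in complex II that of the iron-sulfur subunit Sdhb (170.8 ± 10.6 CPM). Assembly factors were among the lowest, with 6.8 ± 0.3 CPM for Ndufaf5 and 10.9 ± 1.3 CPM for Sdhaf3. The lowest member of complex III was Uqcrc1 at 127.2 ± 6.6 CPM, and that of complex V was Atp5g1 at 281.5 ± 23.5 CPM. Cox4i2, the alternative isoform of Cox4i1, was at 0.6 ± 0.2 CPM, the lowest level of the list. The mt- genes ranged from 48.6 CPM (mt-Atp8) to 12157 CPM (mt-Co3), and 8 of them (mt-Co3, mt-Atp6, mt-Co2, mt-Co1, mt-Cytb, mt-Nd4, mt-Nd1 and mt-Nd2) were above every nuclear member.

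The nuclear-encoded genes peaked in the proliferating DPbla class. Their summed share of UMIs was 3.11%, 2.95%, 3.20% and 2.96% in DPbla, against 2.36%, 2.31%, 2.54% and 2.42% in DN and 2.38%, 2.29%, 2.45% and 2.28% in DPre. The DPbla libraries did not overlap with those of either neighbouring class. The shares in DPsel (2.40 ± 0.066%, SD, n = 4) and CD8SP (2.41 ± 0.078%) were close to that in DPre (2.35 ± 0.080%), and CD4SP had the lowest share (2.14 ± 0.076%). In order, the means ran from DPbla through CD8SP, DN, DPsel and DPre to CD4SP, and the 4 in the middle differed by less than the spread between libraries, although DPsel was above DPre within each library, by 0.057 ± 0.019 percentage points. Within each library the share rose from DN to DPbla by 0.651 ± 0.085 percentage points and was lower in DPre than in DPbla by a factor of 0.768 ± 0.006, in 4 of 4 libraries at each step. The nuclear members came to 281 ± 32.3 UMIs per cell in DPbla and 66.7 ± 10.2 in DPre, where all genes together gave 9160 ± 714 and 2833 ± 358 UMIs per cell.

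The mt- genes moved the other way in summed share. Their summed share was 5.24%, 5.66%, 4.75% and 5.06% in DPbla and 6.34%, 6.81%, 5.87% and 6.52% in DPre. All 4 libraries were higher in DPre, by 1.21 ± 0.170 percentage points, and the lowest DPre value lay above the highest DPbla value. As a result the ratio of nuclear to mt- UMIs was 0.594 ± 0.063 in DPbla and 0.369 ± 0.035 in DPre. It was 0.376 in DN, 0.412 in DPsel, 0.397 in CD4SP and 0.437 in CD8SP. In UMIs per cell both groups were lower in DPre than in DPbla, to 0.237 of the DPbla level for the nuclear members and 0.381 for the mt- genes. The filter on cells limits the mt- share, so the size of this step depends on it. With a limit of 5% the mt- difference between DPre and DPbla was 0.0977 ± 0.0347 percentage points, still positive in 4 of 4 libraries but with overlapping classes, and with a limit of 20% it was 2.51 ± 0.789. The nuclear difference was -0.730 and -0.787 percentage points under these limits.

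**Figure D1:**
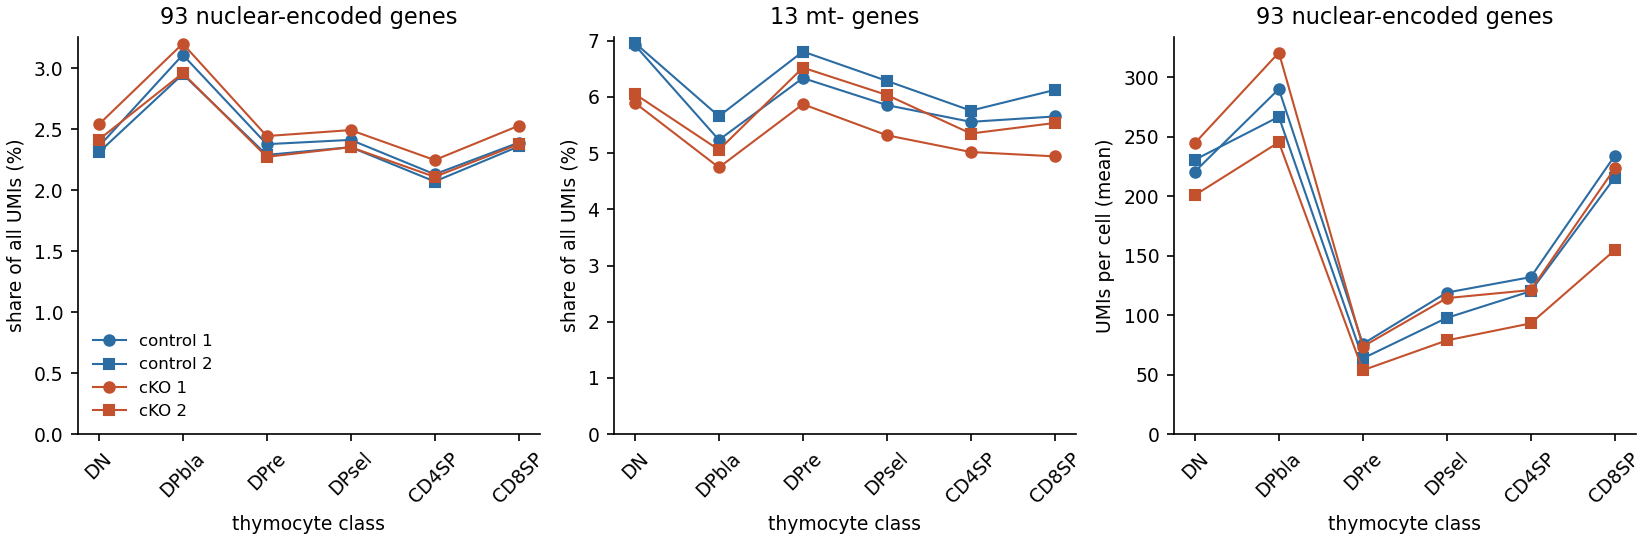
Percent of UMIs from the 93 nuclear-encoded respiratory chain genes (left) and the 13 mt- genes (middle), and nuclear-encoded UMIs per cell (right), in the 6 thymocyte classes, with 1 line per library, control in blue and cKO in orange. The nuclear share was highest in DPbla in all 4 libraries, between 2.95% and 3.20%, where the mt- share was between 4.75% and 5.66%.

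The fall after DPbla was unequal between complexes. From DPbla to DPre the share of complex V was multiplied by 0.711 ± 0.011 (SD over 4 libraries) and that of complex IV by 0.728 ± 0.014, whereas complex I kept 0.816 ± 0.013, complex II 0.894 ± 0.042 and complex III 0.902 ± 0.004. The assembly factors together kept 0.954 ± 0.026. The preceding step from DN to DPbla had a similar order, with ratios of 1.38 for complex IV, 1.27 for complex V, 1.25 for complex I, 1.15 for complex III and 1.09 for complex II. The assembly factors went down at that step, with a ratio of 0.929, in 4 of 4 libraries. Classes came from clustering the same cells, so the steps between them are a description without a test.

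Counted gene by gene, 89 members passed a mean of 10 CPM over the 24 sums of library and class. Ndufaf5, Ndufaf6, Cox4i2 and Cox7a1 did not. From DPbla to DPre, 71 of the 89 were lower in all 4 libraries, against 27.5% of the 8050 genes that passed the same filter, and 8 were higher in all 4, against 57.6%. Their median difference was -0.35 on the log2 scale beside 0.28 over all genes. From DN to DPbla, 58 members were higher in all 4 libraries and 10 lower, beside 33.6% and 33.2% of all genes. The share of members in the majority direction was thus above the background at both steps. From DPre to DPsel, 39 were higher and 25 lower, beside 28.5% and 46.3%. From DPsel to CD4SP, 9 were higher and 63 lower, beside 12.5% and 55.7%, and the medians of members (-0.22) and of all genes (-0.25) were alike. From DPsel to CD8SP, 20 were higher and 35 lower, beside 15% and 54.9%.

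All 17 members of complex V were lower in DPre than in DPbla in all 4 libraries. The same held for 34 of 43 in complex I, 10 of 13 in complex IV, 7 of 8 in complex III and 3 of 8 in complex II. Of the 10 assembly factors that passed, 4 were lower and 3 higher. Of the mt- genes, 11 of 13 were higher in all 4 libraries, beside 57.6% of all genes, and only mt-Nd1 was lower. Their median difference (0.29 log2) was close to that of all genes (0.28). At the step from DN to DPbla, 0 mt- genes were higher and 11 lower in all 4, beside 33.6% and 33.2% of all genes. The medians there were -0.34 log2 for mt- genes and 0.0041 for all genes.

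**Figure D2:**
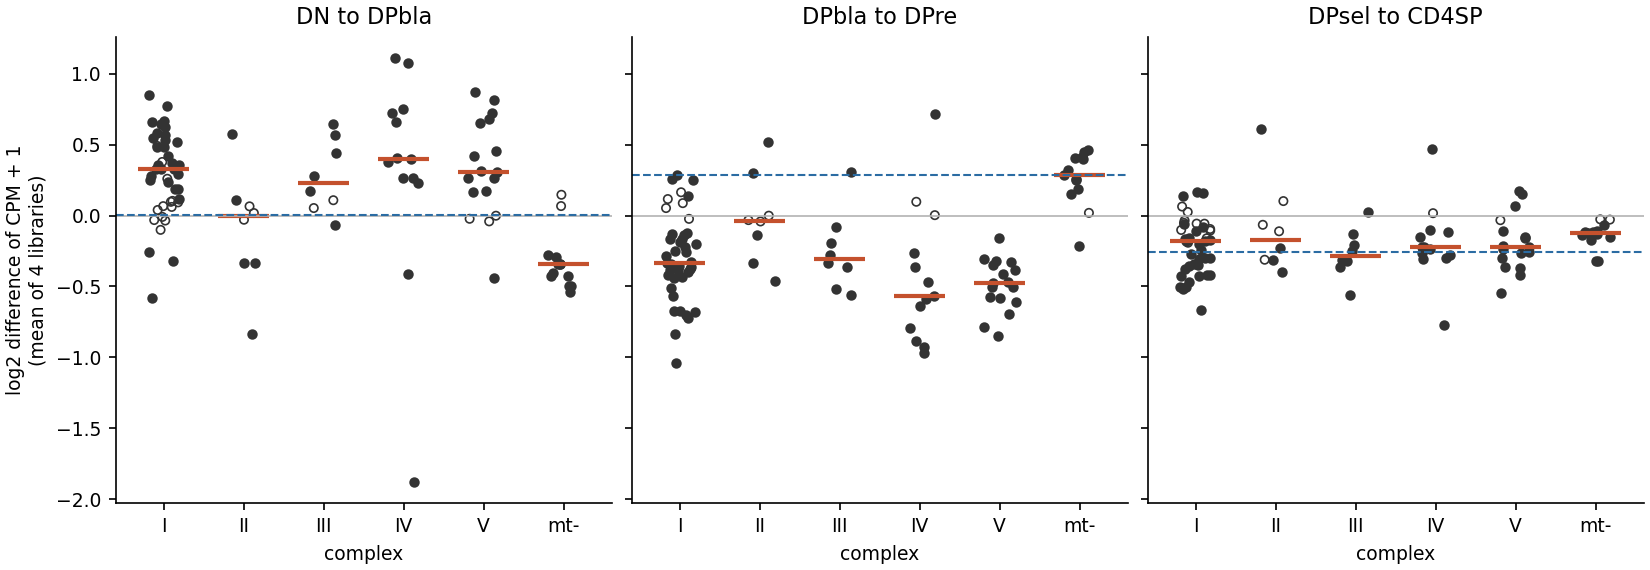
Log2 difference in CPM + 1 (vertical axis, mean of 4 libraries) for 3 steps between classes, with 1 point per gene by complex or mt- genes, filled where all 4 libraries had the same sign (orange bars, group medians; dashed blue line, median of all genes). At the step from DPbla to DPre the complex V genes all lie below 0, and 11 of 13 mt- genes lie above it as filled points. The mt- median at that step (0.29) is close to that of all genes (0.28).

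The largest falls from DPbla to DPre were spread over 3 complexes. Ndufaf2, an assembly factor of complex I, was at 42.5, 35.8, 44.0 and 51.8 CPM in DPbla and 20.8, 17.8, 20.3 and 23.2 CPM in DPre, a mean change of -1.04 ± 0.07 on the log2 scale (SD, n = 4). Cox8a, a small structural subunit of complex IV, was at 1010.3, 1000.8, 1048.0 and 965.9 CPM in DPbla and fell in each library, to 511.9, 478.8, 553.6 and 507.7 CPM in DPre (-0.97 log2). Both genes stood well apart between the classes, with each library near a 2-fold difference. Cox5a, which lies at the matrix side of complex IV, differed by -0.93, Ndufa4, now counted as a complex IV subunit despite its name, by -0.88, and Atp5g2, one of the genes for the c-ring of ATP synthase, by -0.85 log2.

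Against this trend, Cox7a2l rose. It encodes SCAF1, a relative of the Cox7a subunits known for a role in joining complexes III and IV into supercomplexes. Its level was 342.8, 390.9, 327.4 and 379.0 CPM in DPbla and 533.5, 584.2, 621.6 and 631.1 CPM in DPre, a difference of 0.72 ± 0.15 log2, and the classes did not overlap. It was 562.9, 632.2, 575.9 and 637.6 CPM in CD4SP. Its mean profile over the 6 classes ran against the sum of the other complex IV genes (Pearson's r = -0.87 over 6 class means, which share libraries and depth). Other members higher in DPre were Sdhaf2, which helps attach FAD to Sdha (0.52 log2), Uqcrh (0.31), Sdhaf1, an iron-sulfur cluster factor of complex II (0.30), and Ndufaf3, an early assembly factor of complex I (0.28). Sdhaf2, Sdhaf1 and Ndufaf3 are assembly factors, not subunits.

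Between DPsel and CD4SP the largest falls were those of Cox6b2 (-0.77 ± 0.35 log2), Ndufaf2 (-0.67), Uqcrq, a small subunit of complex III (-0.56), Atp5g3, another c-ring gene (-0.54), and Ndufs5, a subunit of complex I (-0.52). Uqcrq stood at 370.4, 399.3, 423.9 and 380.0 CPM in DPsel and 265.1, 266.8, 281.8 and 252.7 CPM in CD4SP, so that every CD4SP library was below every DPsel library. Sdhaf4, an assembly factor of complex II that binds flavinylated Sdha, rose from 27.0, 26.5, 28.0 and 32.2 CPM to 44.1, 41.6, 41.8 and 47.5 CPM (0.61 log2), again without overlap. Cox7a2l was 0.47 log2 higher in CD4SP, Atp5g2 0.17, and the complex I subunits Ndufa6 and Ndufa10 0.17 and 0.16.

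Most members had their highest class in common. The highest mean level was in DPbla for 63 of the 89, in DN for 9, in DPre for 8, in DPsel for 4, in CD8SP for 3 and in CD4SP for 2. The lowest was in CD4SP for 46, in DPre for 17, in DN for 11, in CD8SP for 9, in DPbla for 4 and in DPsel for 2. The median fold between the highest and lowest class was 1.57, the range was 1.16 to 18.3, and 14 members exceeded 2-fold. The correlation of a member with the rest of its complex over the 6 class means had a median of 0.77. It was over 0.8 for 37 members and below 0 for 11. Of the 13 mt- genes, 7 were lowest in DPbla, 6 were highest in DN and 4 were highest in DPre.

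The isoform families differed in their stage patterns. Cox7a2, the widely expressed Cox7a isoform, was at 334.5, 315.5, 371.9 and 360.9 CPM in DN, 772.4, 730.4, 779.0 and 706.4 CPM in DPbla and 437.7, 412.5, 457.6 and 411.6 CPM in DPre. It thus peaked where its relative Cox7a2l was lowest. Cox7a1, the isoform of heart and skeletal muscle, did not exceed 5.0 CPM in the DPre or DPsel libraries. Cox4i1 lay between 698.7 and 1030 CPM in every class and library, and Cox4i2 was at or under 1.5 CPM in every class and library. Cox6b1 lay between 393.2 and 612.9 CPM. Cox6b2, known from testis, was at 93.2, 62.5, 68.6 and 72.2 CPM in DN, 25.7, 15.95, 16.6 and 20.1 CPM in DPbla and 0.7, 2.6, 8.0 and 5.0 CPM in CD8SP. Its 18.3-fold range was the widest of the list, but its low end was CD8SP, where the level was near the floor. Its highest class was DN in each library. Of the Cox8 genes Cox8a alone was a member, and of Ndufa4 and Ndufa4l2 only Ndufa4 was.

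Atp5g1, Atp5g2 and Atp5g3 encode the same mature c-ring subunit of ATP synthase with different import sequences. Their sum was 1317, 1280, 1480 and 1436 CPM in DPbla and 847 to 889 CPM in DPre. The mix changed with stage. Atp5g2 supplied 47.5% to 51.0% of the sum in DN and 34.6% to 35.3% in DPsel. Atp5g3 supplied 20.6% to 23.0% in DN and 34.6% to 36.0% in DPsel. Atp5g1 supplied 26.02%, 29.1%, 31.1% and 29.9% in DN, 19.4%, 18.2%, 21.9% and 21.7% in DPbla and 29.2%, 29.0%, 30.8% and 30.3% in DPsel, so its lowest share coincided with the highest sum.

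The loss of Tox4 was then compared with control within each class, by edgeR's quasi-likelihood test on UMIs summed per library, with Benjamini-Hochberg adjustment over all genes tested in the class. Calls required an adjusted p below 0.05. In DPbla, 2 of 92 members tested were called, beside 3.05% of all 10750 genes. Atp5g1 rose and Ndufaf3 fell. In the other classes 0 members were called. For DN, 90 members were tested and 0.0229% of all genes were called. For DPre the 92 tested stood beside 1.99%, for DPsel the 92 tested beside 0.0186%, for CD4SP the 91 tested beside 0.14%, for CD8SP the 89 tested beside 0.0234%, and for all double-positive cells summed the 93 tested beside 5.74%. At an unadjusted p under 0.05 the edgeR counts were 6, 6, 2, 2, 0 and 13 members in these classes, beside 7.28%, 15%, 8.63%, 7.66%, 6.6% and 20.3% of all genes, and 9 in DPbla (9.78% of members beside 16.1% of genes), so the members' share was below that of all genes in each class. DESeq2 also called 0 in each class where edgeR called 0. With the replicate number as a block, edgeR called 7 members in DPbla (beside 10.3% of all genes), 2 in DPre (9.12%), 1 in DPsel (2.49%), 10 in all double-positive cells (14.6%) and 0 in DN (0.801%), CD4SP (1.4%) and CD8SP (1.39%). The share of members called under the block was 7.61% in DPbla and 10.8% in all double-positive cells, not above the share of all genes.

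Atp5g1 (chr11:96068852-96075670, minus strand, GRCm38) in DPbla measured 256.0 and 232.6 CPM in controls, compared with 324.6 and 311.1 CPM in cKO. Both cKO libraries were above both controls, by 0.43 log2 (SE 0.10, edgeR adjusted p = 0.0259), on 1186 to 3561 UMIs. Without any 1 library the direction was the same (0.40 to 0.47 log2), but the call was lost each time. It was also lost with a mitochondrial limit of 5% (edgeR adjusted p = 0.0778) and with sums thinned to equal totals (edgeR adjusted p = 0.0533). In DN Atp5g1 was at 331.4 and 349.5 CPM in control and 437.7 and 405.8 CPM in cKO, again without overlap (0.33 log2, edgeR adjusted p = 0.523). In DPre it was at 185.2 and 199.5 CPM in control and 214.5 and 205.5 CPM in cKO (0.17 log2, edgeR adjusted p = 0.452). Its log2 difference was 0.08 in DPsel, -0.02 in CD4SP and -0.08 in CD8SP. The share of Atp5g1 in the c-ring sum of DPbla had a mean of 18.8% in control and 21.8% in cKO.

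Ndufaf3 (chr9:108565537-108567434, minus strand, GRCm38) was at 70.2 and 68.3 CPM in control and 48.7 and 43.1 CPM in cKO DPbla. It fell by 0.55 on the log2 scale (SE 0.12, edgeR adjusted p = 0.0162), on 325 to 493 UMIs, without overlap. The call was lost with a mitochondrial limit of 5% (-0.58 log2, edgeR adjusted p = 0.0564) and without cKO 2 (-0.46 log2). In DPre Ndufaf3 was at 80.0 and 72.4 CPM in control and 62.9 and 61.2 CPM in cKO (-0.25 log2, edgeR adjusted p = 0.281). The log2 difference was -0.25 in DPsel, -0.24 in CD4SP, -0.24 in CD8SP and -0.03 in DN. The genotype effect in DPbla exceeded that in DPre by 0.27 log2 for Atp5g1 (SE 0.09, edgeR adjusted p = 0.274) and by -0.30 for Ndufaf3 (SE 0.11, edgeR adjusted p = 0.329), so a difference between the classes was not shown. In that interaction fit edgeR called 0 of 92 members, with 7 at an unadjusted p under 0.05, beside 0.526% of 11785 genes called and 9.36% at an unadjusted p under 0.05. No other tool was run for it.

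The DPbla class was made of 4 clusters, with Ung and Hells, Ccne2 and Pclaf, Prc1 and Nusap1, and Cdc20 and Cenpa among their leading genes. The Ung cluster held 15.5% and 20% of DPbla cells in control and 21.5% and 26.3% in cKO, and the Cdc20 cluster 32.6% and 23.1% in control and 21.9% and 20.3% in cKO. Both genes also varied between clusters. In the Ung cluster Atp5g1 was at 288.8 and 279.3 CPM in control and 421.9 and 384.6 CPM in cKO, and Ndufaf3 was at 41.0 and 44.2 CPM in control and 27.5 and 28.5 CPM in cKO. In the Prc1 cluster Atp5g1 was at 199.7 and 177.7 against 232.0 and 229.3 CPM, and Ndufaf3 at 101.0 and 98.6 against 72.6 and 68.0 CPM. In each of the 4 clusters both cKO libraries were above both controls for Atp5g1 and below both for Ndufaf3, though by little for Atp5g1 in the Cdc20 cluster (223.6 and 170.7 against 226.3 and 238.5 CPM). Both genes were called on the sum of these clusters, so the clusters are not separate evidence for the calls.

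**Figure D3:**
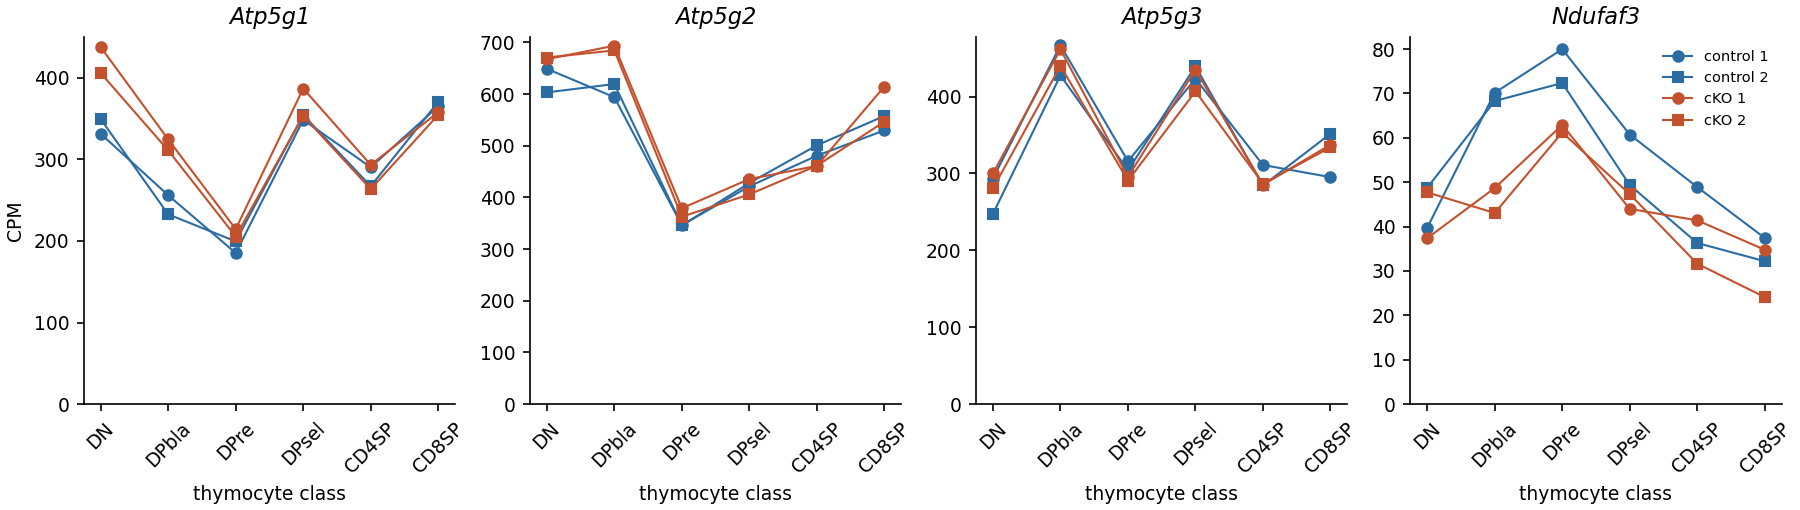
CPM (vertical axis) of Atp5g1, Atp5g2, Atp5g3 and Ndufaf3 by class (horizontal axis), with 1 line per library, control in blue and cKO in orange. In DPbla the cKO points of Atp5g1 lie at 311.1 and 324.6 CPM above the controls at 232.6 and 256.0 CPM, and those of Ndufaf3 lie below the controls.

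The other members with the smallest p-values were not called in the fit without a block. In DPre they were Ndufaf6, an assembly factor of complex I at 3.28 and 3.49 CPM in control and 6.30 and 5.92 CPM in cKO (0.88 log2, edgeR adjusted p = 0.0981), and Cox7a1 (-0.98 log2, edgeR adjusted p = 0.154), both on under 100 UMIs per library. The difference for Cox7a1 was -1.61 log2 in DPsel, on 5 to 23 UMIs. In DN, Cox5a and Cox7b, subunits of complex IV, had differences of 0.33 and 0.26 log2. In DPsel and CD4SP, Ndufs1, the largest iron-sulfur subunit of complex I, had differences of -0.33 and -0.38 log2. Ndufaf5 (-1.01) and Ndufb9 (0.22) were the others in CD4SP, and Sdhd (-0.36), Ndufs3 (-0.28) and Sdhaf4 (-0.35) were those in CD8SP. In all double-positive cells they were Ndufaf3 (-0.34 log2, edgeR adjusted p = 0.0622), Cox7b (0.28) and Ndufab1, the mitochondrial acyl carrier protein (0.28). In the fit without a block, none of these had an adjusted p under 0.05. With the replicate number as a block, edgeR called Ndufaf6 (adjusted p = 0.0119) and Cox7a1 (adjusted p = 0.0402) in DPre and Cox7a1 in DPsel (adjusted p = 0.0437). In DPbla the blocked fit called Ndufaf4, Ndufab1, Ndufaf2 and Cox7b higher and Ndufa13 lower in cKO, beside Atp5g1 and Ndufaf3. In all double-positive cells it called Cox7b, Ndufab1, Cox5a, Uqcr11, Atp5g1, Atp5g2, Ndufaf2 and Cox8a higher and Ndufaf3 and Cox7a1 lower. The edgeR adjusted p-values were 0.00538 for Cox7b, 0.00756 for Ndufab1 and 0.00900 for Ndufaf3. Cox5a, Uqcr11, Atp5g2 and Cox8a were called in none of DPbla, DPre and DPsel under the block. DPbla supplied 25.2% and 25.3% of the UMIs of this sum in control and 37.2% and 35.8% in cKO. The part of that mix in these calls was not tested. Without the filter on low counts, edgeR called Ndufaf4 and Ndufa13 in DPbla (adjusted p = 0.0256 and 0.0481), Ndufaf6 in DPre (adjusted p = 0.0336), and Ndufaf3 and Cox7a1 in all double-positive cells (adjusted p = 0.0366 and 0.0318). Of all genes tested without the filter, 3.55% were called in DPbla, 3.18% in DPre and 6.05% in all double-positive cells.

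With all 4 libraries, the median member sat slightly above 0 in the cKO. In DPbla the median log2 difference was 0.058, with 66 positive and 26 negative, and in DPre it was 0.038, with 60 and 32, while the median over all genes tested was -0.0034 and 0.00010. The medians were 0.10 in DN, 0.010 in DPsel, 0.027 in CD4SP and 0.007 in CD8SP. In all double-positive cells together it was 0.093, with 73 positive and 20 negative, and all 17 complex V genes were positive. In that sum DPbla supplied 25.2% and 25.3% of the UMIs in control and 37.2% and 35.8% in cKO, and the part of this mix in the larger median was not tested. Without cKO 1 the sign turned in 4 classes, with medians of -0.035 in DPre, -0.033 for DPsel, -0.032 for CD4SP and -0.080 for CD8SP. It was then 0.001 in DPbla, 0.076 in DN and 0.018 in all double-positive cells. The median was also negative in CD8SP without control 2 (-0.0092) and in DPsel with a mitochondrial limit of 20% (-0.0045). The summed nuclear share differed between cKO and control by 0.04998 percentage points in DPbla and 0.0254 in DPre, with overlapping libraries. It differed by 0.143 in DN, where the cKO libraries were above both controls, and by 0.0402 in DPsel, 0.0774 in CD4SP and 0.0790 in CD8SP, with overlap. With a mitochondrial limit of 5% the difference in CD4SP was 0.153 and the groups no longer overlapped. They also did not overlap in CD4SP at clustering resolution 1.5, with a difference of 0.118, or in CD8SP at resolution 0.5, with a difference of 0.102.

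**Figure D4:**
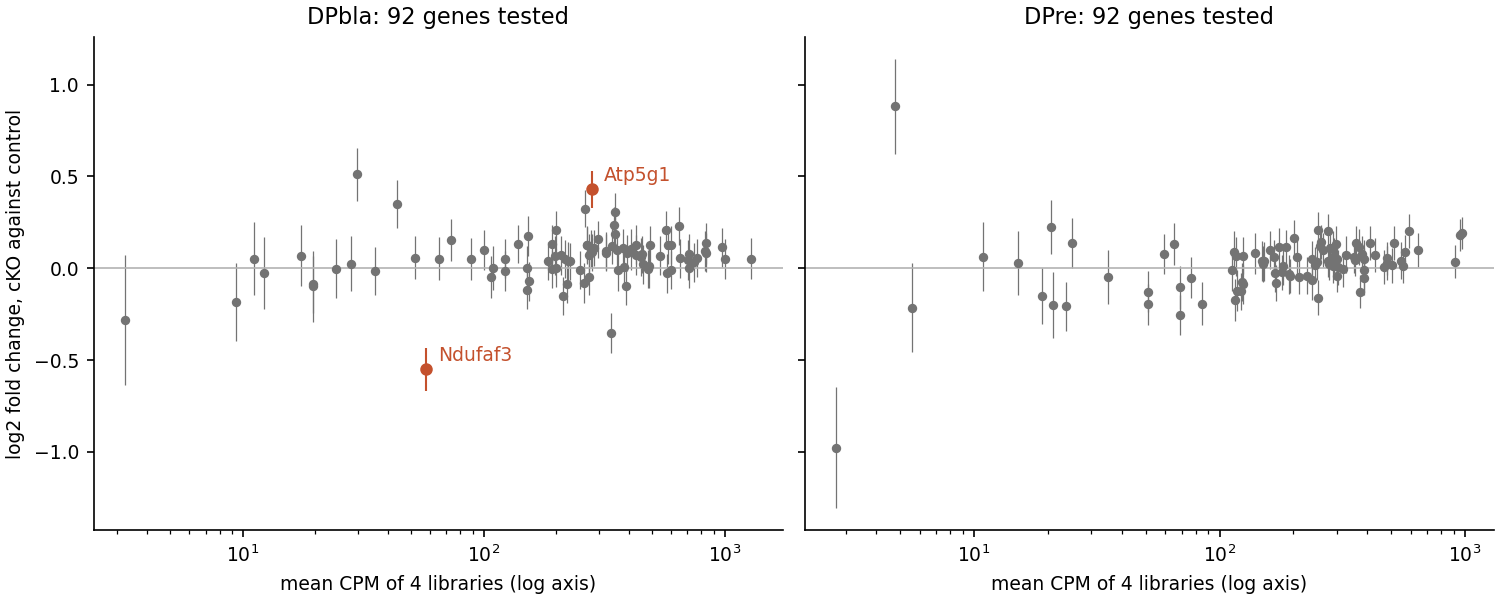
Log2 fold change of cKO against control (vertical axis, edgeR, bars are 1 SE) against mean CPM (log axis) for the 92 members tested in DPbla (left) and in DPre (right). The 2 called members, Atp5g1 (0.43) and Ndufaf3 (-0.55), are marked in orange in DPbla, and none is called in DPre.

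Promoters of the 2 called genes are shown beside those of Atp5l and Cox6a1, subunits of complexes V and IV chosen because their promoters hold motifs known from respiratory genes. Each is the 250 bases before the start of the gene in RefSeq (GRCm38.p6), 5' to 3' on the gene's strand, and capitals mark matches on either strand to GCATGCGC (the core site of NRF1), CCGGAAG (ETS factors such as GABP), AAGATGGCG (YY1) and CACGTG (the E-box bound by Myc and related proteins). They lie at chr11:96075632-96075881 (Atp5g1), chr9:108567437-108567686 (Ndufaf3), chr9:44920743-44920992 (Atp5l) and chr5:115348959-115349208 (Cox6a1), all on the minus strand.
Atp5g1: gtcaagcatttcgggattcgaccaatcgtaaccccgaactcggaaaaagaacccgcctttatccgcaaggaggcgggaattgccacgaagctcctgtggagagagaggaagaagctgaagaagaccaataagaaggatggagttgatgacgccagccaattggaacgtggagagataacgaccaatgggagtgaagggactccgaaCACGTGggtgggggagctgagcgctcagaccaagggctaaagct
Ndufaf3: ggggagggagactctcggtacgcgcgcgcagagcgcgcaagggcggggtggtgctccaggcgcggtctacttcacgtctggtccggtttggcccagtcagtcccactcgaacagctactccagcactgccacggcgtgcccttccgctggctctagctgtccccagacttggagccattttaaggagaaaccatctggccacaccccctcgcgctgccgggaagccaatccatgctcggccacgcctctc
Atp5l: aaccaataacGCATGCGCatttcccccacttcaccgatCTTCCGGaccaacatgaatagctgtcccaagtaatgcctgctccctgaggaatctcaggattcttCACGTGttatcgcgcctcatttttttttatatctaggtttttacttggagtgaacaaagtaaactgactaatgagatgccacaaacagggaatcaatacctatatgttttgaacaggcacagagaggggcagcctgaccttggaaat
Cox6a1: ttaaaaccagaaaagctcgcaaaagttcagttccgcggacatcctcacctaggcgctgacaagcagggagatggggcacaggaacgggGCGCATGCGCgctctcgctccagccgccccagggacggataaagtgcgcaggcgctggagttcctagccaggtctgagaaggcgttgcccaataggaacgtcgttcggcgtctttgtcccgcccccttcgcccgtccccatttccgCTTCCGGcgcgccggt
The Atp5g1 promoter held an E-box 44 bases before the RefSeq start and none of the other motifs. The annotations differ on these starts, and 39 bases of the Atp5g1 window, with 1 base of the E-box, and 23 bases of the Cox6a1 window, with its ETS match, lie inside the gene interval of GENCODE. None of the 4 motifs was in the Ndufaf3 window. The Atp5l window held 1 NRF1, 1 ETS and 1 E-box match, and that of Cox6a1 held 2 overlapping NRF1 matches, 1 on each strand, and an ETS match 16 bases before the start. Among the 79 members found in the RefSeq table, 9 held the NRF1 motif (11.4%, beside 3.32% of 17492 genes), 16 the ETS motif (20.3% beside 10.2%), 1 the YY1 motif (1.27% beside 0.840%) and 6 the E-box (7.59% beside 7.61%). With 50 bases after the start added, the YY1 motif was in 8 members (10.1% beside 2.14%). These matches describe letters in a window and were not tested as binding sites.

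Of the 13 mt- genes, the 3 called in DPbla were all higher in cKO. mt-Nd4l, a complex I subunit, was at 111.0 and 101.4 CPM in control and 165.4 and 210.1 CPM in cKO (0.87 log2, SE 0.12, edgeR adjusted p = 0.00126). mt-Nd5, a proton-pumping subunit of complex I, was at 267.7 and 286.5 CPM in control and 352.9 and 436.6 CPM in cKO (0.56 log2, edgeR adjusted p = 0.0140). mt-Atp8, of complex V, was at 33.2 and 29.9 CPM in control and 43.0 and 55.3 CPM in cKO (0.70 log2, edgeR adjusted p = 0.0119). The groups did not overlap for any of these, and cKO 2 was the highest library each time. In DPre, mt-Nd4l (0.68 log2, edgeR adjusted p = 0.0114) and mt-Nd5 (0.54, edgeR adjusted p = 0.0178) were called. In all double-positive cells mt-Nd6 (0.57 log2) and mt-Atp8 (0.53 log2) were called beside them. The other mt- genes were not called in DPbla, and the abundant mt-Co1, mt-Co3 and mt-Atp6 had differences of -0.21, -0.15 and -0.14 log2. In DN, DPsel, CD4SP and CD8SP edgeR called 0 of 13, with 10, 5, 9 and 8 at an unadjusted p under 0.05 beside 7.28%, 8.63%, 7.66% and 6.6% of all genes, and DESeq2 called mt-Nd4l and mt-Nd5 higher in DPsel and CD4SP and 0 in DN and CD8SP. With the replicate number as a block, edgeR called mt-Nd4l, mt-Nd5, mt-Nd6 and mt-Atp8 higher in the DP classes and in CD4SP, 2 higher (mt-Nd4l and mt-Nd5) and 8 lower in CD8SP, and 4 lower in DN (mt-Atp6, mt-Co1, mt-Co3 and mt-Cytb). Without the filter on low counts it called 4 each in DPbla and DPre, adding mt-Nd6 in both and mt-Atp8 in DPre, 3 in DPsel and 1 in CD8SP.

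mt-Nd4l and mt-Atp8 share a transcript with mt-Nd4 and mt-Atp6, so the division of reads between these partners is uncertain. mt-Nd5 and mt-Nd6 lie opposite each other on the 2 strands of mitochondrial DNA, and the division of their reads was not examined. In DPbla mt-Nd4 was at 2667 and 2941 CPM in control and 2512 and 2763 CPM in cKO, with no rise beside that of mt-Nd4l. Without cKO 2 the adjusted p in edgeR was 0.138 for mt-Nd5 and 0.127 for mt-Atp8 in DPbla, and without control 1 it was 0.0611 for mt-Nd5. In DPre it was 0.0574 for mt-Nd5 without cKO 2. With a mitochondrial limit of 5% it was 0.103 for mt-Atp8 in DPbla and 0.0652 for mt-Nd4l in DPre. The summed mt- share had a lower mean in cKO in each of the 6 classes, with differences of -0.544 percentage points in DPbla, -0.376 in DPre and -0.968 in DN. The groups did not overlap in DN, DPbla, CD4SP and CD8SP but did in DPre and DPsel, and the cell filter uses the same measure. With a limit of 20% the difference was -0.00765 in DPre, -0.146 for DPsel, -0.386 for DPbla, -0.291 for CD4SP and -0.531 for CD8SP. The groups then overlapped in all but DN and DPsel. With a limit of 5% it was -0.0945 in DPbla and -0.0753 in DPre.

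**Figure D5:**
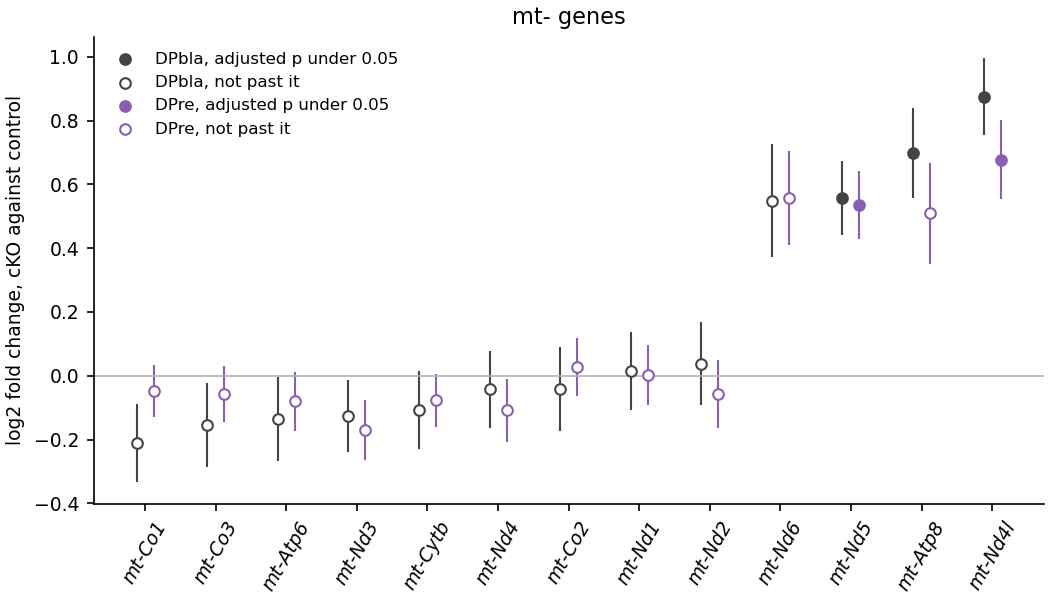
Log2 fold change of cKO against control (points, edgeR, bars are 1 SE) of the 13 mt- genes in DPbla (black) and DPre (purple), filled where called. mt-Nd4l, mt-Nd5, mt-Atp8 and mt-Nd6 lie near or above 0.5, and the other 9 lie between -0.21 and 0.04.

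Other mitochondrial genes were read from the same fits. In DPbla 1 of 33 assembly factors outside the prefixes was higher and 1 lower, while 0 of 17 genes of the TCA cycle, 0 of 78 mitochondrial ribosomal proteins, 0 of 14 genes for cytochrome c and coenzyme Q and 0 of 16 regulators of mitochondrial gene expression were called by edgeR (2, 11, 2 and 3 at an unadjusted p under 0.05, beside 16.1% of all genes). The ribosomal proteins had a median difference of 0.11 log2, with 64 positive and 14 negative. Uqcc2, an assembly factor of complex III, was at 111.2 and 117.2 CPM in control and 161.6 and 161.5 CPM in cKO (0.55 log2, edgeR adjusted p = 0.0087), and was also called in DPre (0.48) and all double-positive cells (0.55). Cox20, a chaperone of the mitochondrially encoded subunit Cox2, was at 165.4 and 131.6 CPM in control and 93.2 and 85.8 CPM in cKO (-0.68 log2, edgeR adjusted p = 0.0041), and was called lower in CD4SP (-0.76) and all double-positive cells (-0.41) as well. Tmem126a, an assembly factor of complex I, was called lower in DPre (-1.25 log2, 12.7 and 8.998 against 5.02 and 3.87 CPM), CD4SP (-1.41) and all double-positive cells (-1.10). Suclg2, of the TCA cycle, was called higher in all double-positive cells only (0.49 log2, edgeR adjusted p = 0.0498), a call lost in 11 of 16 alternative settings. Among the lists in DN, DPsel and CD8SP edgeR called no gene, with 0 to 4 per list at an unadjusted p under 0.05. All genes gave 7.28%, 8.63% and 6.6% at that level, and the 4 were among 32 assembly factors in CD8SP. In CD4SP edgeR called 2 of 33 assembly factors. Of all genes it called 3.05% in DPbla, 1.99% in DPre, 0.14% in CD4SP and 5.74% in all double-positive cells. The calls of Cox20 in DPbla and of Tmem126a and Uqcc2 in all double-positive cells held in all 16 alternative settings. That of Uqcc2 in DPbla was lost without control 1 (edgeR adjusted p = 0.0763), that of Uqcc2 in DPre in 6 settings, that of Tmem126a in DPre in 2, including without cKO 2, those of Cox20 and Tmem126a in CD4SP in 5, and that of Cox20 in all double-positive cells in 3.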

How the data were processed

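Thymocyte suspensions were captured with the 10x Chromium 3' v3 kit. The deposited matrices hold raw UMI counts per gene and droplet, which the authors made with Cell Ranger (6.1.1 per the file headers) against mm10, without normalization. Counts were used as deposited. The authors' stated filters were followed: at least 200 genes, removal of the 2.5% tails of UMIs per library, and at most 10% mitochondrial UMIs. Doublets were scored with Scrublet (scanpy 1.11.5, expected rate 0.08) and the 5% highest were removed, in place of the authors' DoubletFinder. Depth is given as UMIs per library and class, and it limits low members.

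Kept cells were clustered (Leiden, leidenalg 0.10.2, resolution 1, 3000 variable genes without respiratory chain and mt- genes) and named from marker lists, with a score of at least 1, at least 3 markers detected and no second list of another lineage with at least 0.3 of the score. Clusters whose UMI level fell under 0.333 of their library were left unnamed, a rule set after the clusters were seen. Raw counts were summed per library and class and fitted with edgeR 4.0.16 (TMM, filterByExpr, quasi-likelihood F test, genotype only) in R 4.3.3, and DESeq2 1.42.0 was an alternative. The interaction fit had library as a block. Differences between classes were taken as log2(CPM + 1) within each library. The fits were tested on simulated counts. Of changes of 0.5 log2, 24% were called in DPbla, 16% in DPre and 16% in DN. Of changes of 1 log2 it was 86%, 86% and 62%. A member that was not called is thus not shown to be unchanged.

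The members, lists and marker genes were chosen with earlier results of these data known. Genes named were the highest and lowest member of each complex, called members, the 3 smallest p-values where 0 were called, the 5 largest changes each way from DPbla to DPre and from DPsel to CD4SP, isoform families, the mt- genes and called genes of other mitochondrial lists. Other lists were TCA cycle, mitochondrial ribosomal proteins, other assembly factors, cytochrome c and coenzyme Q, and regulators. Alternatives were other size factors, DESeq2, no filter on low counts, mt- UMIs left out, mitochondrial limits of 5% and 20%, resolutions of 0.5 and 1.5, all variable genes in the clustering, thinned sums, a replicate block and each library left out. Of the 93 members, 79 had a RefSeq promoter.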

Additional observations from a re-analysis of the deposited data

Results flagged for a closer look

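Cox6a2, the heart and muscle isoform of Cox6a, was left out of the gene list by its rule and was higher in cKO. Its log2 fold change was 2.12 in DPbla (1.94 and 2.32 CPM in control, 8.46 and 9.78 CPM in cKO), 3.27 in DPre (2.08 and 1.86 against 18.7 and 18.2 CPM) and 2.96 in all double-positive cells (1.58 and 1.64 against 12.1 and 12.2 CPM). It was noted because it lies outside the genes compared in the report and stood above the control libraries.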

How the results depend on the processing

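The alternative settings were counted over the numbers of members called, the medians, the shares, the stage steps and the members and mt- genes called in DPbla and DPre. Of these values, 326 kept their direction and side of the threshold or moved within the stated spread. Another 19 moved, 14 lost a call and 0 changed sign in a called result. Lost calls of genes on the other mitochondrial lists are not in these counts and are given above. The number of members called in DPbla (2) was 4 without a filter on low counts, 0 with a mitochondrial limit of 5% and 7 with the replicate block. In DPre (0) it was 1 without the filter and 2 with the replicate block. In DPsel (0) it was 1 with the replicate block, and in all double-positive cells (0) it was 2 without the filter and 10 with the replicate block. The cause was not tested. The block raised calls over all genes as well, to 10.3% in DPbla and 14.6% in all double-positive cells. The share of all genes called without the filter was 3.55% in DPbla, 3.18% in DPre and 6.05% in all double-positive cells, and with a limit of 5% it was 1.09% in DPbla. The study describes 2 pairs of mice, and the labels give both genotypes replicate numbers 1 and 2 without saying that a number marks a pair, litter or batch. Same-numbered libraries deviated together in DPbla (r = 0.221), DPre (0.228) and all double-positive cells (0.250), and least in CD8SP (0.0571), across genes. Same-numbered libraries were also alike in the share of droplets over 10% mitochondrial UMIs. Whether the numbers mark the pairs was not settled by these sources, so the fit without the block is the main one and that with it an alternative.

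With a mitochondrial limit of 5%, the nuclear share difference in CD4SP was 0.153, and the mt- share difference was -0.0945 in DPbla and -0.178 in CD4SP. The test with a limit of 5% was not run for DN and CD8SP, which then had under 30 cells in a library. The DPbla minus DPre nuclear share (0.710) was 0.787 with a limit of 20% and 0.654 at resolution 0.5. Atp5g1 lost its call in 6 of 16 alternatives (0.38 to 0.47 log2) and Ndufaf3 in 2 of 16 (-0.66 to -0.46). The low-UMI cluster with DPbla markers was added to DPbla in an alternative chosen after seeing the data, which changed no call of a member or an mt- gene; over all genes it called 264 in place of 328 in DPbla and 874 in place of 738 in all double-positive cells. Leaving out 1 library moved the median of members between 0.001 and 0.120 in DPbla, -0.035 and 0.095 in DPre, and 0.018 and 0.172 in all double-positive cells.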

Other observations

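The members' share was also read in droplets left out for a high mitochondrial share. Among all deposited droplets with 2.5% to 5% mitochondrial UMIs, the members made up 3.03% and 2.87% of the non-mitochondrial UMIs in control and 3.14% and 2.95% in cKO. Among droplets with 20% to 40% it was 2.15% and 1.72% in control and 2.28% and 2.60% in cKO, lower in 4 of 4 libraries. The fall was not even, since in cKO 2 the share was 2.52% at 7.5% to 10%, 2.36% at 10% to 15% and 2.75% at 15% to 20%, and in cKO 1 it was 2.65% at 7.5% to 10% and 2.75% above 40%. These droplets were not assigned to classes, so their mix of cell types was not compared. Within kept DPre cells the share at 2.5% to 5% against that at 7.5% to 10% was 2.47% and 2.54% in control 1, 2.36% and 2.48% in control 2, 2.58% and 2.54% in cKO 1, and 2.39% and 2.44% in cKO 2, so it was lower in the upper range in cKO 1 and higher in the other 3 libraries.

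Ndufaf4, an assembly factor of complex I chosen here after its values were seen, was at 23.7 and 25.9 CPM in control and 37.2 and 31.8 CPM in cKO DPbla (0.51 log2, edgeR adjusted p = 0.0661). The edgeR adjusted p for Ndufaf4 was 0.00419 with the replicate number as a block (0.50 log2) and 0.0256 without the filter on low counts. Ndufaf4 also stood out between classes, at 51.2, 50.01, 55.9 and 44.96 CPM in DPsel against 22.3, 25.8, 26.8 and 25.0 CPM in DPre.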
